A study of Bos taurus with 16 samples.

Results

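The core genes of the circadian clock were followed in the muscle of newborn Hanwoo calves. The 10 genes PER1, PER2, PER3, CRY1, CRY2, NR1D1, NR1D2, DBP, CLOCK and CIART were taken by their NCBI gene numbers from the 34109 genes listed, and all 10 had at least 1 read in every library. Hanwoo is a Korean beef breed of cattle. RNA was sequenced from muscle of the round, a region of the hind leg, and of the sirloin region of 8 male calves. In the control group (4 calves) the cow was fed 100% of its nutritional requirement, and in the treated group (4 calves) 150% during mid to late pregnancy. The calves were taken from their mothers at birth, before they drank colostrum, and were euthanized with pentobarbital, so both groups share the lack of feeding and the drug. The time of day of birth and of sampling was not given in the sources used here. Calves are named control 1 to 4 and treated 1 to 4 by the replicate number of the labels, which also joins the 2 muscles of a calf.

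The clock is a feedback loop that runs in nearly every cell with a period of about a day. CLOCK and its partner BMAL1 switch on the PER and CRY genes, whose proteins return to the nucleus and block CLOCK and BMAL1. A further loop passes through the nuclear receptors NR1D1 and NR1D2 (REV-ERB alpha and beta), which repress BMAL1, while DBP and CIART are direct targets of the CLOCK and BMAL1 pair. Because these genes peak at different times of day, the balance between them differs with the hour at which a tissue is collected. The loop is also adjusted by hormones such as glucocorticoids, to which PER1 and PER2 respond directly.

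Levels are given in CPM, the reads of a gene for every 1000000 counted, with libraries scaled by the trimmed mean of M-values (TMM), and comparisons between genes use TPM, which also corrects for gene length. Total counts ranged from 44473011 to 72446933 per library. Markers of muscle fibres were abundant in every library, and ACTA1 stood at 14592 CPM or more. The summed CPM of 5 adipocyte markers was between 0.88 and 8.64 in 15 libraries and 2341 in the sirloin library of treated 4. The summed CPM of 5 tendon and fibroblast markers was 2663 in the round library of control 2 and between 212 and 640.2 in the others. Control 2 was also the most deeply sequenced calf in both muscles, and only its TPM values summed to exactly 1000000. In bulk tissue, fewer cells of a type and less RNA per cell cannot be told apart.

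By median TPM the order of the genes was nearly the same in both muscles. PER1 was highest, at a median of 29.6 TPM in round and 37.1 TPM in sirloin muscle, followed by NR1D2 (27.4 and 29.6), CRY1 (19.4 and 19.4), NR1D1 (12.8 and 13.6) and CRY2 (9.35 and 9.06). CLOCK (6.72 and 8.32) and PER2 (6.17 and 8.63) changed places between the muscles, as did DBP (3.20 and 4.30) and CIART (3.15 and 5.02), and PER3 was lowest (0.69 and 0.54). PER3 was the only gene clearly apart from its neighbour, being below CIART in 8 of 8 libraries of each muscle. The other neighbours in this order overlapped, PER1 being above NR1D2 in 5 of 8 libraries of each muscle.

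CLOCK (NCBI gene 100300400), the DNA-binding activator of the loop, was among the steadiest of the 10 genes. In round muscle its level was 46.0, 40.2, 44.6 and 54.9 CPM in control 1 to 4 and 27.5, 45.1, 42.9 and 57.3 CPM in treated 1 to 4. In sirloin muscle the levels were 42.3, 48.8, 54.3 and 51.2 CPM in the control calves and 35.0, 51.4, 50.7 and 51.2 CPM in the treated calves. Treated 1 was the lowest calf in both muscles, and the range from the lowest to the highest library was 2.08-fold in round and 1.55-fold in sirloin muscle.

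PER2 (NCBI gene 512237), a repressor that also responds to light and hormone signals, varied most between calves. In round muscle it stood at 73.1, 5.66, 10.03 and 62.3 CPM in control 1 to 4 and at 9.17, 90.7, 11.6 and 31.6 CPM in treated 1 to 4. In sirloin muscle it stood at 52.1, 3.28, 11.1 and 67.9 CPM in the control calves and at 10.4, 101, 20.6 and 35.7 CPM in the treated calves. The same 4 calves were highest in both muscles, namely control 1, control 4, treated 2 and treated 4, so that each diet held 2 high and 2 low calves. The range was 16.03-fold in round and 30.9-fold in sirloin muscle. PER1 (NCBI gene 516318), its close relative, ranged less, by 3.25-fold in round and 3.92-fold in sirloin muscle. PER1 levels in round muscle were 142, 73.2, 56.5 and 112 CPM in control 1 to 4 and 139, 184, 136 and 87.1 CPM in treated 1 to 4. In sirloin muscle they were 164, 65.8, 129 and 141 CPM in the control calves and 117, 258, 154 and 135 CPM in the treated calves, with control 2 lowest and treated 2 highest. PER3 (NCBI gene 614154) ran from 1.16 to 3.49 CPM in round and from 1.25 to 1.93 CPM in sirloin muscle.

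CRY1 (NCBI gene 535947), a repressor of the CLOCK and BMAL1 pair, was lowest in control 2 and treated 1. Its round levels were 43.0, 16.6, 60.0 and 62.8 CPM in control 1 to 4 and 11.4, 31.5, 35.6 and 45.8 CPM in treated 1 to 4. Its sirloin levels were 46.9, 13.1, 35.1 and 59.0 CPM in the control calves and 14.1, 32.3, 35.9 and 34.0 CPM in the treated calves. The other 6 calves stood at 31.5 CPM or more in both muscles. CRY2 (NCBI gene 509058), the second cryptochrome, ran from 12.7 to 33.0 CPM in round and from 10.99 to 16.004 CPM in sirloin muscle, and its highest value was the round library of treated 2, whose sirloin level was 14.1 CPM.

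NR1D1 (NCBI gene 768225), the heme-binding repressor of BMAL1, was highest in the 3 calves lowest in PER2. Its round levels were 10.6, 55.5, 41.5 and 14.4 CPM in control 1 to 4 and 57.2, 16.1, 23.0 and 15.96 CPM in treated 1 to 4. Its sirloin levels were 24.7, 52.2, 61.9 and 13.0 CPM in the control calves and 37.8, 15.2, 19.6 and 18.5 CPM in the treated calves. Control 2, control 3 and treated 1 were the 3 highest calves in both muscles. Treated 3, also among the calves low in PER2, lay below control 1 in sirloin muscle (19.6 and 24.7 CPM). NR1D2 (NCBI gene 532076), its paralog, had a narrower range, from 60.6 to 121 CPM in round and from 50.9 to 121 CPM in sirloin muscle, with control 3 highest in both.

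DBP (NCBI gene 503577), a transcription factor that carries the rhythm to output genes, was highest in control 2 and treated 1, the calves lowest in CRY1. In round muscle it stood at 2.29, 7.85, 3.40 and 2.71 CPM in control 1 to 4 and at 9.38, 4.59, 2.44 and 3.59 CPM in treated 1 to 4. In sirloin muscle it stood at 3.52, 8.62, 5.16 and 3.63 CPM in the control calves and at 11.9, 3.46, 3.47 and 6.64 CPM in the treated calves. CIART (NCBI gene 104968463), a further repressor of the CLOCK and BMAL1 pair, followed another order. Its round levels were 1.56, 2.25, 2.60 and 9.09 CPM in control 1 to 4 and 3.14, 7.57, 0.81 and 7.19 CPM in treated 1 to 4. Its sirloin levels were 4.37, 2.69, 2.71 and 6.69 CPM in the control calves and 4.49, 13.4, 3.50 and 6.56 CPM in the treated calves. Control 4, treated 2 and treated 4 were high in both muscles. The plot of levels by calf shows these patterns side by side.

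**Figure D1:**
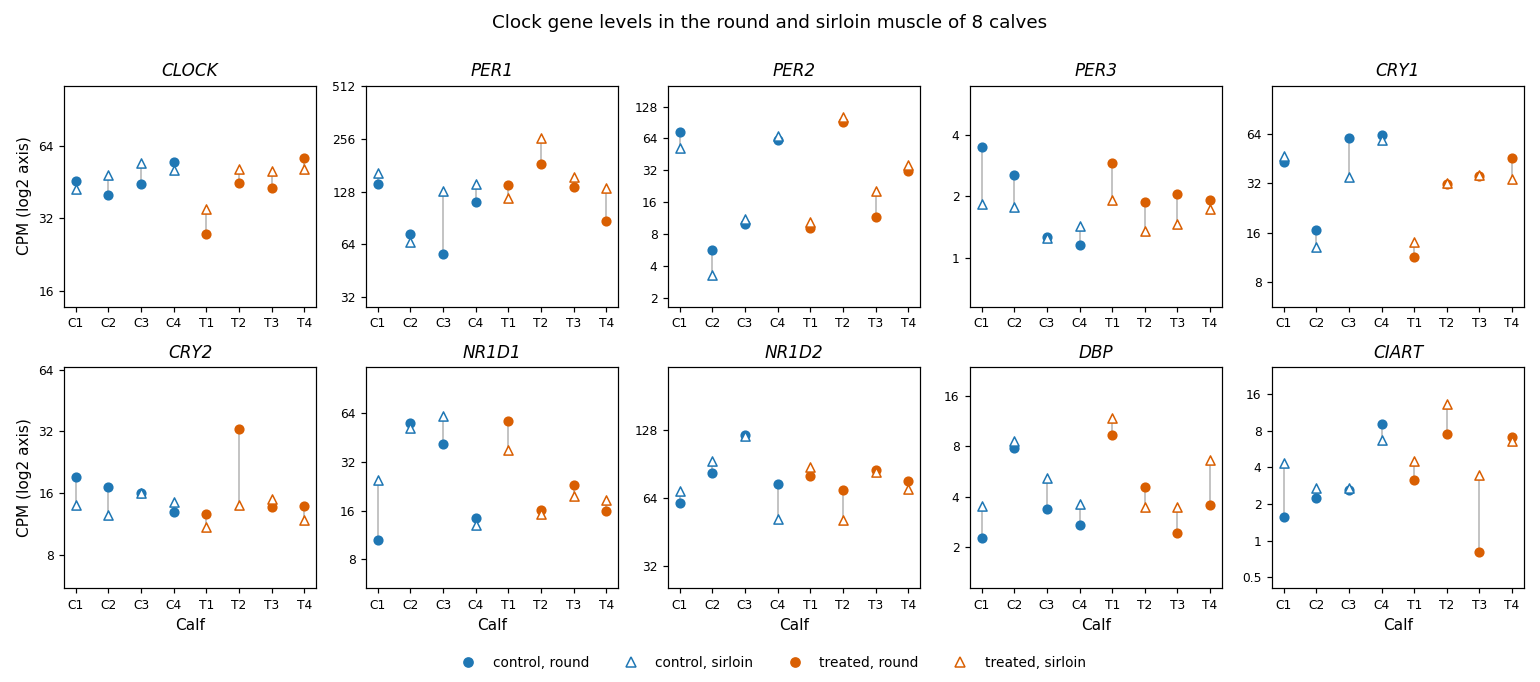
Level of each of the 10 clock genes (CPM, log2 axis, 1 panel per gene with its own range) in the 4 control calves (C1 to C4, blue) and the 4 treated calves (T1 to T4, orange), with circles for round and triangles for sirloin muscle and a grey line joining the muscles of a calf. PER2 ran from 5.66 to 90.7 CPM in round muscle and was high in 2 control and 2 treated calves, while NR1D1 was highest in C2, C3 and T1, where PER2 was lowest.

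Whether the diet of the cow moved the clock genes was asked in each muscle by edgeR's quasi-likelihood test with Benjamini-Hochberg adjustment over all genes. None of the 10 genes passed an adjusted p of 0.05 in round muscle, where 4 of 21677 genes did (0.0185%), and none was below 0.05 without adjustment (4.41% of all genes). In sirloin muscle the counts were also 0 of 10, against 2 of 21776 genes (0.00918%) with and 3.91% without adjustment. DESeq2 and limma-voom likewise gave 0 of 10 genes in each muscle, with and without adjustment. The control and treated calves overlapped for each of the 10 genes in both muscles, and of all genes tested 1.76% in round and 1.68% in sirloin muscle had no overlap. The median log2 fold change of the 10 genes, treated over control, was 0.01 in round and -0.01 in sirloin muscle, where the medians over all genes were 0.02 and 0.03.

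The largest differences in round muscle were those of PER1 and CRY1. Mean PER1 was 96.0 ± 38.5 CPM (SD, n = 4) on the control diet and 136.5 ± 39.5 CPM (SD, n = 4) on the treated diet. Its log2 fold change was 0.53 (SE 0.325, edgeR adjusted p = 0.864). Mean CRY1 was 45.6 ± 21.2 CPM (SD, n = 4) on the control diet and 31.1 ± 14.4 CPM (SD, n = 4) on the treated diet, which is a log2 fold change of -0.54 (SE 0.446, edgeR adjusted p = 0.892). In sirloin muscle the differences of these genes lay in the same directions, at 0.41 for PER1 (SE 0.322) and -0.41 for CRY1 (SE 0.421), and neither was larger than the spread between calves. CIART and NR1D1 had the largest sirloin differences. Mean CIART was 4.12 ± 1.89 CPM (SD, n = 4) on the control diet and 6.99 ± 4.46 CPM (SD, n = 4) on the treated diet, with a log2 fold change of 0.76 (SE 0.46, edgeR adjusted p = 0.876). Mean NR1D1 was 37.9 ± 22.9 CPM (SD, n = 4) on the control diet and 22.8 ± 10.2 CPM (SD, n = 4) on the treated diet, with a log2 fold change of -0.74 (SE 0.461, edgeR adjusted p = 0.876). The precision was lowest for PER2. Its log2 fold change was -0.06 in round muscle, with a 95% interval from -1.88 to 1.76, and 0.32 in sirloin muscle, with an interval from -1.56 to 2.20. The narrowest intervals were those of NR1D2 in round muscle, from -0.64 to 0.43, and of CLOCK in sirloin muscle, from -0.49 to 0.36.

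**Figure D2:**
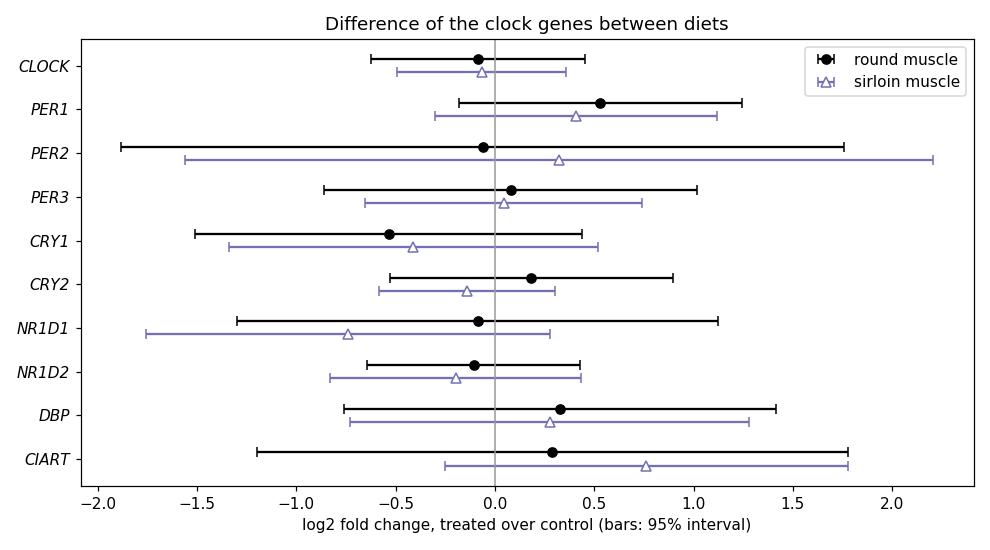
Log2 fold change (treated over control) of the 10 clock genes in round (black circles) and sirloin muscle (purple triangles) from edgeR, with bars for the 95% interval. Every interval holds 0, and the interval of PER2 in round muscle runs from -1.88 to 1.76.

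When the counts of both muscles were summed per calf, 0 of 10 clock genes passed in edgeR, against 1 of 22877 genes (0.00437%), and none was below 0.05 without adjustment (3.85% of all genes). DESeq2 on these sums also gave 0 of 10, as did limma-voom on the separate libraries with the calf as a random effect. The lowest member was again PER1, with a log2 fold change of 0.43 (SE 0.286, edgeR adjusted p = 0.933). The difference of the diet effect between the muscles was tested as an interaction, first without the calf in the model, and reached an adjusted p of 0.05 for none of the 22877 genes (0%) and for none of the clock genes. At an unadjusted p of 0.05 the interaction had 0 of 10 clock genes in edgeR and in DESeq2 (2.78% of all genes in edgeR). NR1D1 had the largest interaction, 0.62 on the log2 scale (SE 0.793, edgeR adjusted p = 1.0). With the calf as a replicate block 1 of the 22877 genes passed (0.00437%) and none of the clock genes. In that paired fit PER2 was below 0.05 before adjustment, where 3.78% of all genes were, with an interaction of -0.58 on the log2 scale (SE 0.262, 95% interval from -1.15 to -0.00793, unadjusted p = 0.0474, edgeR adjusted p = 1.0).

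The wider clock pathway gave the same count. Of 27 further genes tested, namely partners of CLOCK, output factors, kinases, ubiquitin ligases and clock-controlled genes, 0 passed in either muscle, and 0 were below 0.05 without adjustment. Over all genes 0.0185% passed in round and 0.00918% in sirloin muscle, and 4.41% and 3.91% were below 0.05 without adjustment. In round muscle 14 of the 27 lay higher and 13 lower in treated calves, and in sirloin muscle 11 lay higher and 16 lower. Of all genes, 11261 of 21677 lay higher in round and 11529 of 21776 in sirloin muscle. BMAL1, the partner of CLOCK that is listed under its older symbol ARNTL, had a log2 fold change of -0.56 in round (SE 0.388) and 0.13 in sirloin muscle (SE 0.55). RORA, a nuclear receptor that activates BMAL1, had log2 fold changes of -0.88 (SE 0.442) and -0.31 (SE 0.389) in round and sirloin muscle. NPAS2, which can replace CLOCK, had log2 fold changes of -0.21 (SE 0.373) and 0.04 (SE 0.321). Of the output factors with a basic leucine zipper, NFIL3 stood at 0.50 (SE 0.648) and 0.38 (SE 0.588), TEF at 0.35 (SE 0.427) and 0.06 (SE 0.26), and HLF at 0.18 (SE 0.383) and -0.46 (SE 0.46) in round and sirloin muscle. The E-box repressor BHLHE40 had log2 fold changes of -1.09 (SE 0.613) and -0.41 (SE 0.566), and BHLHE41 had 0.25 (SE 0.27) and -0.41 (SE 0.307). Of the markers of other cell types, those of red blood cells lay higher in treated calves in both muscles, in 3 of the 3 that could be tested, with 1 below 0.05 before adjustment in each muscle and 0 after it. Their summed CPM was 0.80 to 5.82 in control and 2.39 to 10.99 in treated round muscle, and 0.72 to 4.08 and 3.02 to 8.97 in sirloin muscle, and SLC4A1 was at 0 in every library. Among these markers HBB and HBA are globin genes, and the study's methods name the removal of globin RNA by a kit. ALAS2 had a median of only 0.065 CPM. In sirloin muscle 5 of 5 immune markers lay higher in treated calves, with 1 below 0.05 before adjustment and a summed CPM of 6.80 to 11.7 in control and 8.91 to 43.0 in treated calves. There 5 of 5 adipocyte markers also lay higher, with 5 below 0.05 before adjustment (3.91% of all genes). That rise was in the library of treated 4 alone, at a summed 2341 CPM. The sums were 0.88 to 3.01 CPM in treated 1 to 3 and 1.73 to 5.20 CPM in the control calves. In round muscle 4 of 5 adipocyte markers lay lower in treated calves, 4 of 5 immune markers higher and 4 of 5 tendon and fibroblast markers lower. Each of these 3 lists had 1 marker below 0.05 before adjustment there (4.41% of all genes). In sirloin muscle 3 of 5 tendon and fibroblast markers lay lower, with 1 below 0.05. Of the muscle fibre markers, 5 of 5 lay lower in sirloin muscle, with 0 below 0.05, and 4 of 5 lay higher in round muscle, with 1 below 0.05. Of the endothelial markers 0 were below 0.05 in either muscle. None of these markers passed after adjustment. Their part in the clock gene values was not tested.

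Round was compared with sirloin muscle over all 16 libraries, and 0 of 10 clock genes passed in edgeR, where 14 of 22877 genes did (0.0612%). None of the 10 was below 0.05 without adjustment (6.33% of all genes), and DESeq2 also gave 0 of 10. PER3 had the largest log2 difference, round over sirloin, of 0.43 (SE 0.256, edgeR adjusted p = 0.864), and it was higher in round muscle in 7 of 8 calves. With the calf as a replicate block, which removes the differences between calves, 109 genes passed (0.476%), and still none of the clock genes. In that paired fit DBP and CIART were below 0.05 before adjustment, where 11.2% of all genes were. DBP was lower in round muscle in 7 of 8 calves, with a log2 difference of -0.39 (SE 0.154, edgeR adjusted p = 0.354). CIART was lower in round muscle in 6 of 8 calves, with a log2 difference of -0.55 (SE 0.251, edgeR adjusted p = 0.440). The standard error of PER2 was 0.674 without the block and 0.131 with it, and its difference between the muscles was -0.04 in the paired fit, with a 95% interval from -0.33 to 0.24. The SD of PER2 was 0.482 on the log2 scale for the difference of a calf's muscles and 1.59 for the calf means.

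Since the 2 muscles of a calf were collected together, their agreement shows whether a level belonged to the calf or to a single library. For each gene with a mean of at least 1 CPM in both muscles, Pearson's r between round and sirloin log2 CPM was computed over the 8 calves. PER2 agreed best of the 10 genes, with r = 0.956 (exact permutation p = 0.000223, adjusted over 12049 genes p = 0.0313). Its Spearman's rho was 0.976 (exact permutation p = 0.000397), and r was 0.948 without the 2 calves farthest from the median. The r of PER2 lay at percentile 99.0 of all genes, and the SD of its calf means, 1.59 on the log2 scale, at percentile 99.1. PER2 was the only member to pass after adjustment, where 3.93% of all genes passed. That call was lost without any 1 of the 8 calves, with r between 0.941 and 0.977 and an adjusted p of up to 0.304 over 13 alternatives. Without adjustment 7 of 10 members were below 0.05, namely PER2, CRY1, DBP, PER3, NR1D1, NR1D2 and CIART, where 32.9% of all genes were.

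All 10 genes had r above 0, as 92.3% of all genes did, and their median r was 0.796 against 0.592 over all genes. The median SD of calf means on the log2 scale was 0.603 for the 10 genes and 0.370 over all genes. For the difference of a calf's muscles the median SD was 0.418 and 0.397, so the muscles were no closer to each other than for all genes. CRY1 had r = 0.917 (exact permutation p = 0.00449, adjusted p = 0.0606) and rho = 0.786 (exact permutation p = 0.0279). DBP had r = 0.861 (exact permutation p = 0.00888, adjusted p = 0.0734) and rho = 0.619 (exact permutation p = 0.115). Both relations rest on control 2 and treated 1, since without the 2 calves farthest from the median r fell to 0.569 for CRY1 and to 0.354 for DBP. Adjusted p for the 7 other genes lay between 0.0849 and 0.694. The r of CLOCK, 0.769 (exact permutation p = 0.0530), was 0.06 without the 2 farthest calves. NR1D1 (r = 0.807, exact permutation p = 0.0228) kept r = 0.728, NR1D2 (r = 0.784, exact permutation p = 0.0174) rose to 0.913, and PER3 (r = 0.826, exact permutation p = 0.0131) rose to 0.885. CIART had r = 0.722 (exact permutation p = 0.0402), PER1 r = 0.667 (exact permutation p = 0.0651) and CRY2 r = 0.234 (exact permutation p = 0.6). CRY2 agreed least between the muscles, and its calf means had an SD of 0.264 on the log2 scale.

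**Figure D3:**
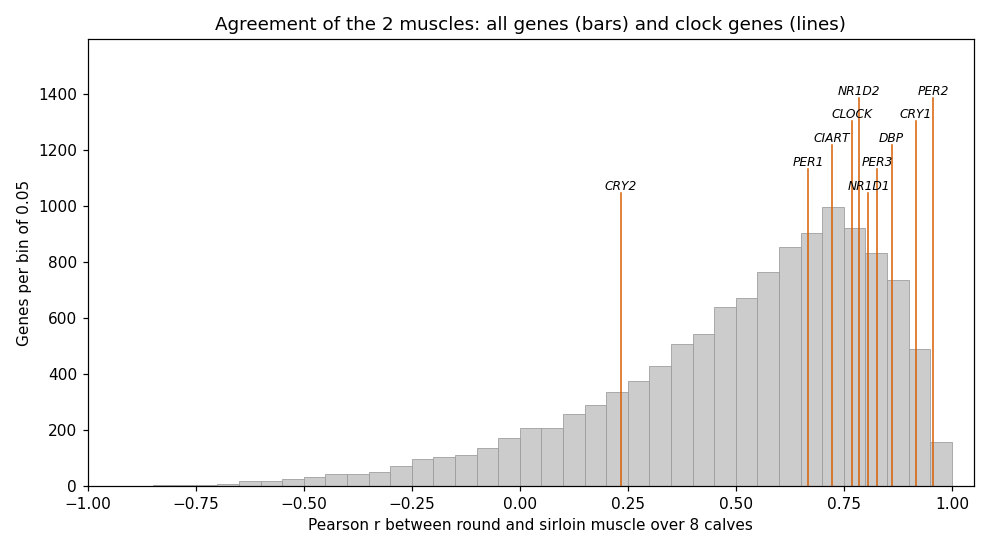
Pearson r between round and sirloin log2 CPM over 8 calves, as a histogram of 12049 genes in bins of 0.05 (grey bars) with the 10 clock genes as orange lines. PER2 (0.956) and CRY1 (0.917) lie near the upper end, and CRY2 (0.234) lies below the median of all genes (0.592).

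Over the 10 genes at once, the muscles of a calf were each other's nearest. By Euclidean distance on log2 CPM with the muscle means removed, the nearest sirloin library to a round library was that of the same calf in 8 of 8 calves, and the reverse also held in 8 of 8. With 25 other clock pathway genes the counts were 7 of 8 and 7 of 8. The first principal component of the 10 genes held 69.3% of their variance and the second 14.6%. The genes were not scaled to equal spread for the distances or the components, so PER2, which varied most, weighed most in both. PER2 (-0.754), CIART (-0.306) and CRY1 (-0.278) had negative loadings on the first component, and NR1D1 (0.385) and DBP (0.236) positive ones. Control 2 had the highest scores, 2.78 in round and 3.52 in sirloin muscle, followed by treated 1 (2.24 and 1.84) and control 3 (1.22 and 1.55). Treated 2 (-2.24 and -2.74), control 4 (-2.26 and -2.16), control 1 (-1.78 and -1.19) and treated 4 (-1.05 and -0.73) lay at the other end, and treated 3 (1.10 and -0.10) lay between. Calves of both diets stood at both ends of this order.

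Which clock genes rose and fell together was read from the mean log2 CPM of the 2 muscles of each calf, for 45 pairs. At an unadjusted exact p of 0.05, 8 pairs were called, 4 with r above and 4 with r below 0, where 10.7% of all pairs of a clock gene with another gene were called. None of the 45 passed after adjustment over all genes, and the adjusted p of the 8 pairs lay between 0.114 and 0.999. Without control 2 the count was 5. The strongest pair was PER2 with NR1D1, at r = -0.920 (exact permutation p = 0.00114, adjusted p = 0.245 for PER2 and 0.482 for NR1D1). Spearman's rho was -0.952 (exact permutation p = 0.00114), r was -0.908 in round and -0.861 in sirloin muscle alone, and -0.910 without the 2 farthest calves. Leaving out each calf in turn gave r between -0.955 and -0.890. In round muscle PER2 left a gap between 11.6 and 31.6 CPM with 4 calves on each side, and no r is given within 4 calves. In sirloin muscle only treated 3 lay in that gap, at 20.6 CPM.

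NR1D2 followed NR1D1 (r = 0.837, exact permutation p = 0.00424, rho = 0.929 with exact permutation p = 0.0022) and opposed PER2 (r = -0.811, exact permutation p = 0.0123, rho = -0.881 with exact permutation p = 0.00724). Without the 2 farthest calves these r were 0.769 and -0.854. PER1 followed PER2 (r = 0.785, exact permutation p = 0.0186, rho = 0.667 with exact permutation p = 0.0831) and opposed NR1D1 (r = -0.707, exact permutation p = 0.0486, rho = -0.643 with exact permutation p = 0.0962). Those r fell to 0.417 and -0.542 without the 2 farthest calves. CRY1 opposed DBP (r = -0.899, exact permutation p = 0.00935, rho = -0.595 with exact permutation p = 0.132) and followed CLOCK (r = 0.783, exact permutation p = 0.0104, rho = 0.619 with exact permutation p = 0.115). CRY1 with DBP rested on control 2 and treated 1, since r was -0.263 without the 2 farthest calves. For CRY1 with CLOCK r was 0.333 without the 2 farthest calves. Leaving out 1 calf gave that pair r between 0.562, without treated 1, and 0.895, without control 2. DBP followed NR1D1 (r = 0.730, exact permutation p = 0.0452, rho = 0.595 with exact permutation p = 0.132), and r was 0.847 without the 2 farthest calves. CRY1 with NR1D1 was not among the 8 pairs, at r = -0.674 (exact permutation p = 0.0754, rho = -0.452 with exact permutation p = 0.267), and r was -0.00779 without the 2 farthest calves. In 35 of 45 pairs r had the same sign in both muscles.

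**Figure D4:**
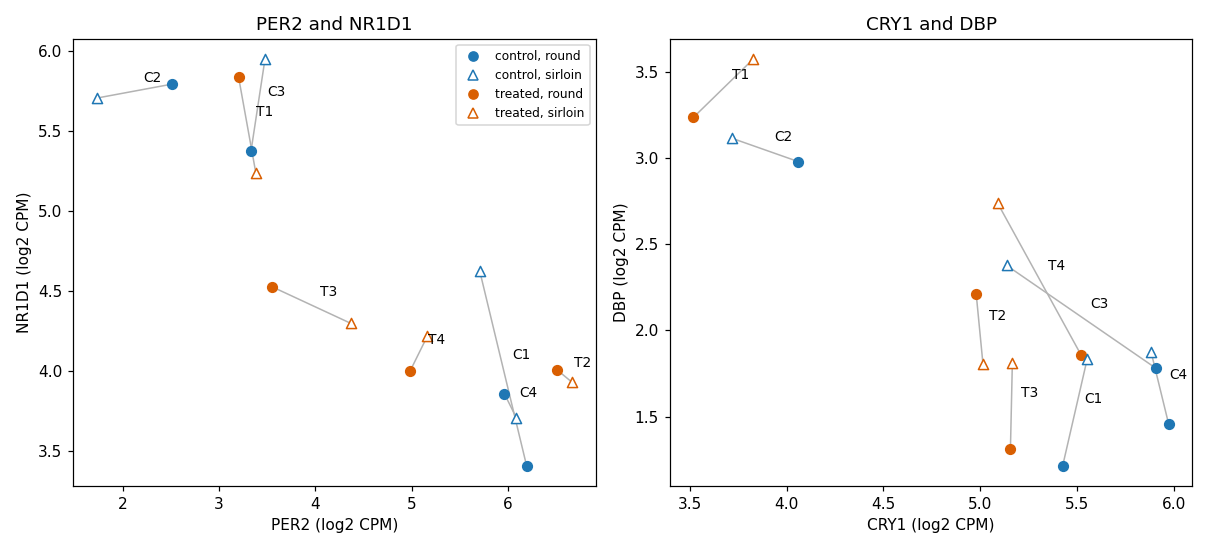
Log2 CPM of PER2 against NR1D1 (left) and of CRY1 against DBP (right) in 16 libraries, with circles for round and triangles for sirloin muscle, blue for control and orange for treated calves, and a grey line joining the muscles of a calf. PER2 and NR1D1 are opposed over the means of 8 calves (r = -0.920). CRY1 and DBP are also opposed over these means (r = -0.899), with control 2 and treated 1 apart from the other 6 calves.

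**Figure D5:**
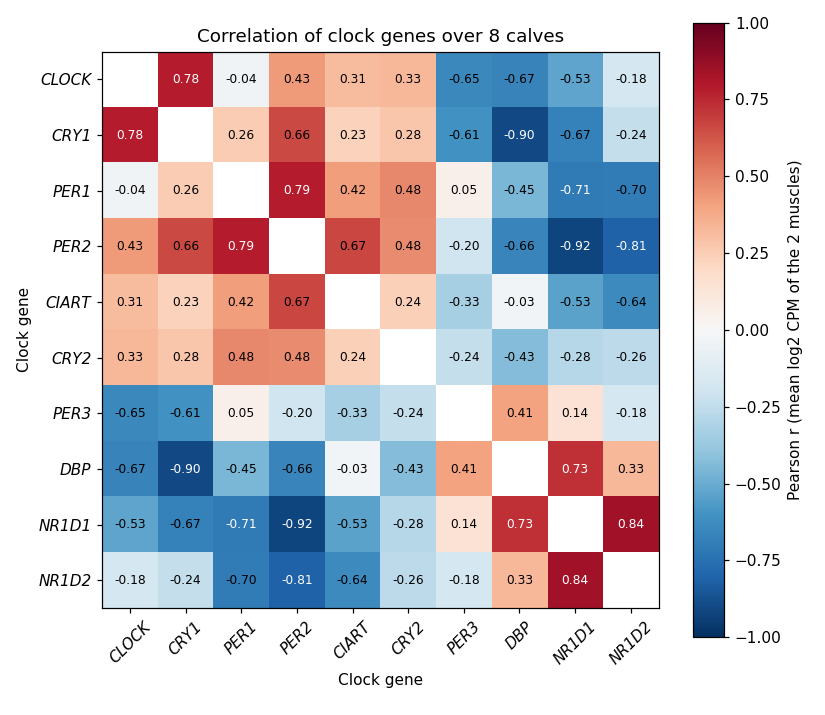
Pearson r over 8 calves between each pair of the 10 clock genes, on the mean log2 CPM of the 2 muscles (red positive, blue negative, value in each cell). The largest negative value is that of PER2 with NR1D1 (-0.92), followed by that of CRY1 with DBP (-0.90).

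Other listed genes were set against PER2 and NR1D1 in the same way. NFIL3, a repressor of DBP target genes, followed PER2 (r = 0.904, exact permutation p = 0.00918, adjusted p = 0.304) and opposed NR1D1 (r = -0.859, exact permutation p = 0.0112). Its round levels were 23.1, 9.09, 11.05 and 31.97 CPM in control 1 to 4 and 6.66, 53.9, 6.82 and 37.7 CPM in treated 1 to 4, so the 4 calves highest in NFIL3 were those highest in PER2. BMAL1 had r = 0.575 with PER2 (exact permutation p = 0.146) and r = -0.540 with NR1D1 (exact permutation p = 0.173). Control 2 and treated 1 were lowest in BMAL1 in both muscles, at 9.67 and 6.26 CPM in round and 6.98 and 4.32 CPM in sirloin muscle, while the other calves stood at 13.8 CPM or more. Of 10 glucocorticoid-responsive genes, 10 had r above 0 with PER2 and 0 had r above 0 with NR1D1, where 46% and 53.1% of all genes had r above 0. Of the 10, 2 were below an exact p of 0.05 with PER2 before adjustment and 3 with NR1D1, where 11.2% and 8.79% of all genes were, and 0 were below it after adjustment. The 3 most abundant were PDK4 (r = 0.618 with PER2), GLUL (0.754) and TXNIP (0.724), whereas 2 of the 10 had r of only 0.039 and 0.054 with PER2. With NR1D1 those 2 had r of -0.022 and -0.069. Because PER2 and NR1D1 were themselves opposed, the counts with them are not separate. Of 12 immediate early genes, 8 had r above 0 with PER2 and 1 was below an exact p of 0.05 before adjustment. The summed CPM of the glucocorticoid-responsive genes ran from 2801 to 21153 in control and from 4234 to 14459.9 in treated round muscle, and from 3010.03 to 19179 in control and from 5256 to 20776 in treated sirloin muscle. The part of glucocorticoids and of the hour of sampling in the clock gene differences was not tested.

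Among the genes that were not members, those most like each member were found by Pearson's r over the 16 libraries with the muscle means removed, a description over libraries that share calves. PER2 was most like IST1 (r = 0.959) and GPAT3 (0.941), CRY1 like OTUD1 (0.958) and VPS54 (0.956), and DBP like ARRB2 (0.948) and CCDC8 (0.941). NR1D1 was most like IRF2BPL (0.926) and VPS26C (0.904), NR1D2 like LMBR1L (0.846) and TIMELESS (0.834), and PER3 like C19H17orf49 (0.918) and TMEM258 (0.877). CIART was most like GLCE (0.880) and LOC101907588 (0.876), and CLOCK like DCTN6 (0.878) and ZHX1 (0.872). PER1 was most like LOC112441469 (0.852) and CCNDBP1 (0.850), and CRY2 like MR1 (0.849) and RPS6KA5 (0.825).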

How the data were processed

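RNA from 16 muscle libraries of 8 calves was sequenced, 4 calves per diet. The deposited read counts are whole numbers per gene without normalization, and the authors also deposited normalized values that sum to at most 1000000 per library and were used as TPM. The labels name Trimmomatic, STAR, featureCounts and the build ARS-UCD1.2 with poly(A) selection, whereas the study's methods name HISAT2, Bowtie2 and StringTie and the removal of ribosomal and globin RNA by a kit. The difference between these accounts could not be settled from the files. Deposited tables of the authors' own fold changes and p-values were not used.

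Symbols were taken by gene number from a RefSeq table of another build (ARS-UCD2.0), so no coordinates are given. Genes with at least 1 count in any library were tested with edgeR 4.0.16 (TMM, glmQLFit, glmQLFTest) in R 4.3.3, in groups of 4, two-sided, with Benjamini-Hochberg adjustment over all genes. The main tests used no covariates, and the calf or the replicate number entered only as the replicate block named below. The SE is the log2 fold change divided by the square root of F. Log2 CPM used a prior count of 2. Correlations over 8 calves used genes with a mean of at least 1 CPM in each muscle and two-sided exact permutation tests over 40320 pairings, or 576 within the diets. The alternatives were DESeq2 1.42.0, limma-voom (limma 3.58.1), RLE size factors, filterByExpr, log2(TPM + 0.1), a replicate block and leaving out each calf. The edgeR comparisons were first run on simulated data in which 200 genes were changed by 2 on the log2 scale. The share recovered was 77.5% for the diet in round and 70.5% in sirloin muscle. It was 92% for the calf sums, 95% for round against sirloin muscle and 51% for the interaction, with 8 to 13 false calls. The simulation gave the 2 muscles of a calf no shared level.

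After the group means were removed, the muscles of a calf correlated at 0.410 to 0.776 in 8 of 8 calves and with other calves at most at 0.157, so the muscles were treated as paired by the replicate numbers of the labels. Whether calves of a group came from separate sires or pens is not given, and p-values of the diet tests within a muscle or on calf sums measure the spread between these calves. With the calf as a block, p-values measure the spread between calves in the difference of the muscles. Without it, the edgeR fits over 16 libraries took the muscles of a calf as separate. The genes and lists were chosen with earlier results of these data known. The genes named were the 10 members, partner genes (BMAL1, NPAS2, RORA, NFIL3, TEF, HLF, BHLHE40 and BHLHE41, and 1 that is not reported here), any listed clock gene below an adjusted p of 0.05, the 2 genes most like each member, and at most 3 abundant genes of each other list. Of the 28 listed clock genes that were not members, BMAL2 had 0 counts and was not tested.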

Additional observations from a re-analysis of the deposited data

Results flagged for a closer look

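Each clock gene was examined in each of the 4 groups for a library far from the other 3 by Dixon's gap test on CPM, and 5 of 40 groups passed its 95% critical value, where chance passes about 1 in 20. That rate holds for normal values and separate groups, whereas these genes are correlated and the muscles share calves. Log2 CPM, on which gaps between high values are smaller, was not used here. CRY2 was 33.0 CPM in the round library of treated 2, where the other 3 treated round libraries lay between 12.7 and 13.8 CPM. CLOCK was 35.0 CPM and CRY1 14.1 CPM in the sirloin library of treated 1, each below the other 3 libraries of the group, and treated 1 was the lowest treated calf for both genes in round muscle too. CIART was 9.09 CPM in the round library of control 4, and PER3 was 2.93 CPM in the round library of treated 1. The values are given without an explanation.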

How the results depend on the processing

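None of the 10 clock genes passed an adjusted p of 0.05 for the diet in either muscle, for the calf sums, for the interaction or for round against sirloin muscle under any alternative run, and the lowest adjusted p was 0.354, for DBP with the calf as a replicate block in round against sirloin muscle. The diet difference of PER1 stayed above 0 and that of CRY1 below 0 in each muscle and in the calf sums under every alternative run, as did in sirloin muscle CIART above 0 and CRY2 and NR1D1 below 0. Leaving out each calf in turn moved the log2 value of the diet difference in round muscle across 0, from -1.11 to 0.47 for PER2, -0.12 to 0.42 for PER3, -0.28 to 0.32 for CRY2, -0.72 to 0.33 for NR1D1, -0.24 to 0.12 for NR1D2, -0.19 to 0.83 for DBP, -0.28 to 0.0724 for CLOCK and -0.0618 to 1.15 for CIART. For the diet difference in sirloin muscle the ranges were -0.60 to 0.92 for PER2, -0.0555 to 0.12 for PER3, -0.37 to 0.0383 for NR1D2, -0.23 to 0.63 for DBP and -0.13 to 0.048 for CLOCK. For the diet difference of the calf sums the ranges were -0.86 to 0.58 for PER2, -0.0937 to 0.28 for PER3, -0.25 to 0.13 for CRY2, -0.29 to 0.0603 for NR1D2, -0.19 to 0.68 for DBP and -0.20 to 0.0406 for CLOCK. For round over sirloin muscle the ranges were -0.16 to 0.0925 for PER2, -0.14 to 0.0785 for NR1D1 and -0.00524 to 0.0933 for NR1D2. For the interaction the ranges were -0.0927 to 0.22 for PER1, -0.16 to 0.28 for PER3, -0.34 to 0.068 for CRY1, -0.11 to 0.50 for CRY2, -0.0238 to 0.18 for NR1D2, -0.15 to 0.23 for DBP, -0.19 to 0.0297 for CLOCK and -0.84 to 0.0239 for CIART. With limma-voom the round diet difference of PER2 was 0.10, and the calf sum of CRY2 was -0.0509 with limma-voom with the calf as a random effect and -0.0369 with the replicate block. With filterByExpr the difference of NR1D1 between the muscles was 0.00448. For the agreement of the muscles, the 1 call (PER2) was 0 with Spearman's rho, with the diet means removed, without the 2 farthest calves and without any 1 calf (0 to 0), and fewer calves leave fewer permutations. The count before adjustment was 3 without the 2 farthest calves. For the pairs, the count of 8 was 15 in sirloin muscle alone, 3 with Spearman's rho, and 5 to 12 when 1 calf was left out, with 5 without control 2.

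Counts over all genes moved by over 1.5 times with DESeq2, to 45 in round muscle, 13 in sirloin muscle, 37 for the calf sums and 84 for round against sirloin muscle, and to 1 in round muscle and 0 in sirloin muscle with limma-voom. For the diet in both muscles, limma-voom on the separate libraries with the calf as a random effect gave 2. Replicate numbers across the diets are only numbers, since calves sharing one correlated between -0.297 and 0.291, and the replicate block left 2, 0 and 0 genes for the diet in round muscle, in sirloin muscle and for the calf sums and no clock gene. With the calf as a block in the interaction, 1 gene passed and PER2 was at an unadjusted p of 0.0474 (adjusted p = 1.0, edgeR). In round against sirloin muscle the block left DBP and CIART below 0.05 before adjustment. No adjusted call of a clock gene changed with the replicate block. The lowest count of a clock gene in any library was 52, and the effect of depth was not tested.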
